A study of Mus musculus with 2 samples.

Results

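The miR-181 family consists of 6 miRNA genes in 3 clusters: Mir181a-1 with Mir181b-1, Mir181a-2 with Mir181b-2, and Mir181c with Mir181d. The members were taken by their names in the M21 gene annotation, and all 6 were found among the 2202 annotated miRNA genes of the count tables. The libraries came from tissue labelled layer of hippocampus, from adult female mice of the strain labelled 5xFAD/CAST, aged 8 to 10 months, and held RNA under 30 nt. 5xFAD is a transgenic mouse model of Alzheimer's disease, and CAST commonly stands for CAST/EiJ, a wild-derived inbred line. All belong to 1 group with 2 biological replicates. Their donor entry is the same, and whether separate animals were used is not stated. There was no control genotype, second age or second tissue, so levels, clusters, copies and the distance between the libraries can be described, but no effect of the genotype.

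A miRNA gene is transcribed as part of a longer RNA, from which a hairpin is cut out and then diced into a short duplex. One strand, the guide, is loaded into an Argonaute protein and pairs with target mRNAs through its seed, bases 2 to 8, which lowers their translation and stability. In the miR-181 family the guide usually comes from the 5′ arm (5p) of the hairpin. The family is known for setting the sensitivity of the T cell receptor and for the development of natural killer T cells in mice, where the Mir181a-1 and Mir181b-1 cluster carries most of that role. In rat neurons miR-181a represses the AMPA receptor subunit GluA2 at synapses, and in rodent astrocytes the family affects survival and inflammatory signalling.

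The mature 5p sequences, shown because they define the family and separate its copies, comprised 4 distinct RNAs over the 6 genes. They are from RefSeq on GRCm38.p6, the assembly also called mm10, and capitals mark the seed.
mmu-miR-181a-5p, from Mir181a-1 and from Mir181a-2: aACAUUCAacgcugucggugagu
mmu-miR-181b-5p, from Mir181b-1 and from Mir181b-2: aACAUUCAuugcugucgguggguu
mmu-miR-181c-5p, from Mir181c: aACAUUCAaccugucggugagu
mmu-miR-181d-5p, from Mir181d: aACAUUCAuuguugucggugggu

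The seed ACAUUCA was the same in all 6 genes, and in the RefSeq table of 1738 mature miRNAs no other gene had it. Outside the seed the family fell into 2 pairs. With positions counted from 1 at the 5′ end, miR-181b-5p differed from miR-181a-5p by A9U, C10U and A21G (the miR-181a base first) and was 1 base longer. miR-181d-5p differed from miR-181b-5p by C12U (the miR-181b base first) and was 1 base shorter. miR-181c-5p was 1 edit away from miR-181a-5p, at 22 against 23 bases. The copies of miR-181a-5p were identical to each other, and so were those of miR-181b-5p.

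The 3′ arm (3p), usually the strand that is discarded, gave 6 distinct RNAs with 4 seeds, so on this arm every gene can be told from the others. Capitals again mark bases 2 to 8.
mmu-miR-181a-1-3p: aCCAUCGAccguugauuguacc
mmu-miR-181a-2-3p: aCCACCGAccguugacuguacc
mmu-miR-181b-1-3p: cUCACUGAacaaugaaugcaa
mmu-miR-181b-2-3p: cUCACUGAucaaugaaugcaaa
mmu-miR-181c-3p: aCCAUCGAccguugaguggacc
mmu-miR-181d-3p: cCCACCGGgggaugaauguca

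The 3p strands of the a copies differed by U5C and U16C, the Mir181a-1 base first. The first of these lies in the seed, so Mir181a-2 did not share its 3p seed with Mir181a-1, while Mir181c did. The 3p strands of the b copies shared their seed and differed by A9U, the Mir181b-1 base first, and by 1 base of length. The 3p seeds of Mir181a-2 and of Mir181d were found in no other gene of the table.

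The clusters lie on 3 chromosomes and in different surroundings, given here for mm10 with the M21 annotation. Mir181a-1 (ENSMUSG00000065565.1, chromosome 1, 137966455 to 137966541, + strand) lies in an intron of the non-coding gene Gm4258 and shares its last 11 bases with the first exon bases of the non-coding gene A430106G13Rik. Mir181b-1 (ENSMUSG00000065458.1, chromosome 1, 137966639 to 137966718, + strand) follows after 97 bp, in an intron of Gm4258 and wholly inside an exon of A430106G13Rik. Both also lie across from an intron of Gm26936 on the other strand. No other annotated miRNA gene lies within 100000 bp of this cluster.

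Mir181a-2 (ENSMUSG00000065423.1, chromosome 2, 38852735 to 38852810, + strand) and Mir181b-2 (ENSMUSG00000065578.1, chromosome 2, 38853830 to 38853918, + strand) are 1019 bp apart. They lie across from an intron of Nr6a1, which encodes an orphan nuclear receptor, and on their own strand M21 places no host gene over them. The non-coding gene Nr6a1os ends 364 bp upstream of Mir181a-2 on the same strand. Mir181b-2 also lies across from an exon of Gm44144, a gene model of the class TEC.

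Mir181c (ENSMUSG00000065483.2, chromosome 8, 84178873 to 84178961, − strand) and Mir181d (ENSMUSG00000076338.1, chromosome 8, 84178716 to 84178787, − strand) are 85 bp apart. Both lie in an intron of Nanos3, which encodes a germ cell RNA-binding protein, on its strand. The nearest other annotated miRNA gene, Gm25110, lies 21838 bp away on the + strand. The cluster of Mir23a, Mir27a and Mir24-2 starts 29556 bp away on the + strand. Mir3074-2 and Mir709 also lie within 100000 bp. In the plot of the 3 clusters to scale, the a-2/b-2 cluster is the widest, at 1184 bp against 264 bp for a-1/b-1 and 246 bp for c/d.

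**Figure D1:**
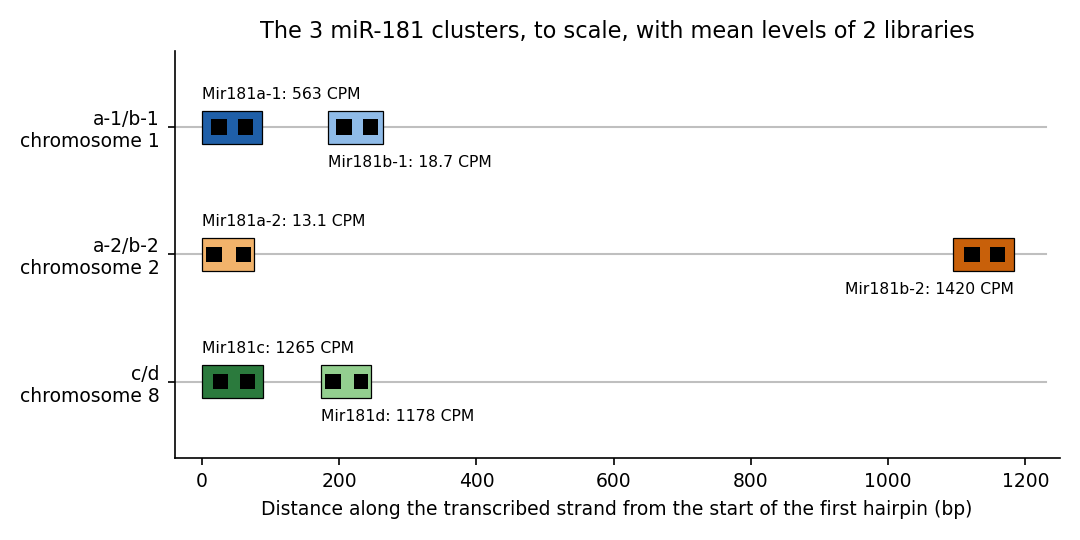
The 3 miR-181 clusters drawn to scale along the transcribed strand (x axis, bp from the start of the first hairpin), with hairpins as coloured boxes, mature arms as black bars and the mean level of 2 libraries beside each gene. In the a-1/b-1 cluster the first hairpin is the high one (563 against 18.7 CPM), in the a-2/b-2 cluster the second is (13.1 against 1420 CPM), and in the c/d cluster the genes are close (1265 against 1178 CPM). Reads placed at several genes are left out.

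Replicate 1 held 9962659 reads and replicate 2 held 12761689, and 3135960 and 4377622 of these were assigned in sense to miRNA genes. Reads that map to several places were 36.3% and 41.7% of the libraries and are given in a summary line of their own. All 3 columns of a table sum to the same total, so each read stands in 1 line and a read in that summary line is in no gene's count. A read of the annotated 5p strand of miR-181a or miR-181b matches both of its genes, whereas each strand of Mir181c and Mir181d was found in 1 gene. The counts of the 4 a and b genes therefore leave out any read placed at both copies, and every level, share or order that sets them against Mir181c and Mir181d compares unlike counts. Setting an a gene against a b gene may do so too. Levels are given as CPM, the count scaled to a constant total of reads assigned to miRNA genes, and a gene's count does not separate the arms of its hairpin. A read covers a whole mature RNA, so counts were not divided by gene length except where stated. Of the neuronal markers, 8 of 12 were detected, and the 12 summed to 36033 CPM in replicate 1 and 34370 in replicate 2. Single genes of this set differed more than the sums. Mir132, the highest, was at 21687 and 13106 CPM, and Mir128-1 at 4545 and 9069 CPM. The 3 copies of Mir124a, the classic neuronal miRNA, had at most 8 counts, in a tally that leaves out reads placed at several copies, and those copies are known to give the same mature miRNA.

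All 6 miR-181 genes were detected, meaning at least 10 counts in each library, against 17.4% of the 2202 annotated genes. Together they had 14091 counts in replicate 1 and 19361 in replicate 2. This was 0.449% of the assigned counts in replicate 1 (exact Clopper-Pearson 95% interval 0.442% to 0.457%) and 0.442% in replicate 2 (0.436% to 0.449%), so the intervals of the libraries overlapped. The intervals cover counting error only, since reads copied by PCR are not independent molecules. The median level of the members was 9.67 on the log2(CPM + 1) scale, against 6.82 over the 384 detected genes and 0 over all annotated genes.

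In these counts the levels fell into 3 tiers, with Mir181b-2, Mir181c and Mir181d at the top, Mir181a-1 below them, and Mir181b-1 and Mir181a-2 far below. Mir181b-2 had 4841 and 5673 counts, or 1544 CPM in replicate 1 and 1296 CPM in replicate 2 (1420 ± 175, SD, n = 2), and ranked 75th and 82nd of all genes. Mir181c had 3760 and 5830 counts, or 1199 and 1332 CPM (1265 ± 93.9), and ranked 87th and 81st. Mir181d had 3458 and 5489 counts, or 1103 and 1254 CPM (1178 ± 107), and ranked 90th and 84th. The ranges of these 3 genes overlapped, and Mir181b-2 was above Mir181c in 1 of 2 libraries only.

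Mir181a-1, the leading a gene, had 1919 and 2249 counts, or 612 and 514 CPM (563 ± 69.4, SD, n = 2), at rank 116 and 122. It lay below Mir181d in both libraries, by 1.80-fold in replicate 1 and 2.44-fold in replicate 2, with no overlap. Mir181b-1 had 74 and 60 counts, or 23.6 and 13.7 CPM (18.7 ± 6.99), and Mir181a-2 had 39 and 60 counts, or 12.4 and 13.7 CPM (13.1 ± 0.898). These lowest 2 genes overlapped in range and had the same count in replicate 2. They lay at ranks 276 and 298 for Mir181b-1 and 308 and 298 for Mir181a-2.

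**Figure D2:**
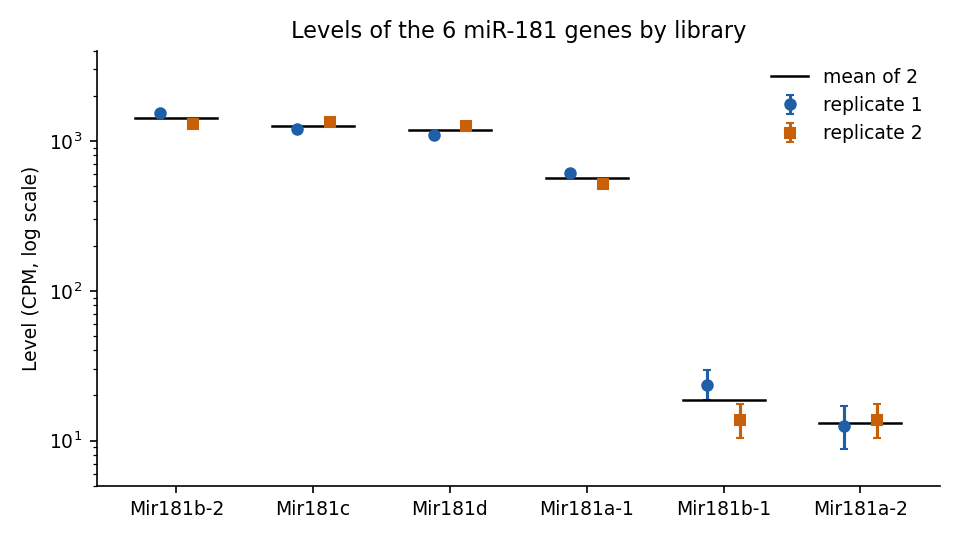
Levels of the 6 miR-181 genes (y axis, CPM on a log scale) in replicate 1 (circles) and replicate 2 (squares), with exact 95% counting intervals and the mean of 2 libraries as a line. The 3 highest genes lie between 1103 and 1544 CPM, Mir181a-1 at 514 and 612 CPM, and the 2 lowest genes between 12.4 and 23.6 CPM.

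Divided by the annotated hairpin length, the order of the top 3 changed and the tiers stayed. Per 100 nt, Mir181d, the shortest hairpin at 72 nt, was at 1637 CPM, Mir181b-2 at 1595 CPM and Mir181c at 1422 CPM. Mir181a-1 was at 647, Mir181b-1 at 23.3 and Mir181a-2 at 17.2 CPM per 100 nt.

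The c/d cluster supplied the largest part of the family's counts, which leave out reads placed at both copies for the other clusters but not for c/d. Its genes held 51.2% of them in replicate 1 (exact 95% interval 50.4% to 52.1%) and 58.5% in replicate 2 (57.8% to 59.2%). The a-2/b-2 cluster held 34.6% (33.8% to 35.4%) and 29.6% (29.0% to 30.3%), and the a-1/b-1 cluster 14.1% (13.6% to 14.7%) and 11.9% (11.5% to 12.4%). The order c/d, a-2/b-2, a-1/b-1 was the same in both libraries and the ranges of the clusters did not overlap. Averaged over the libraries the shares were 54.8% ± 5.12 for c/d and 32.1% ± 3.55 for a-2/b-2 (SD, n = 2).

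In reads placed at 1 gene, single genes held most counts of the chromosome 1 and 2 clusters. Reads placed at both copies are left out, and how many this removes from an a gene and a b gene may differ. From the 5p start the a copies were identical over 27 bases and the b copies over 24. Mir181a-1 made up 96.3% of its cluster in replicate 1 and 97.4% in replicate 2 (96.8% ± 0.788, SD, n = 2). Mir181a-2 made up 0.799% and 1.05% of its cluster (0.923% ± 0.175), the rest being Mir181b-2. Mir181c made up 52.1% and 51.5% of the c/d cluster (51.8% ± 0.414). So in these counts the share of the first hairpin was near the whole in a-1/b-1, near none in a-2/b-2, and near even in c/d.

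**Figure D3:**
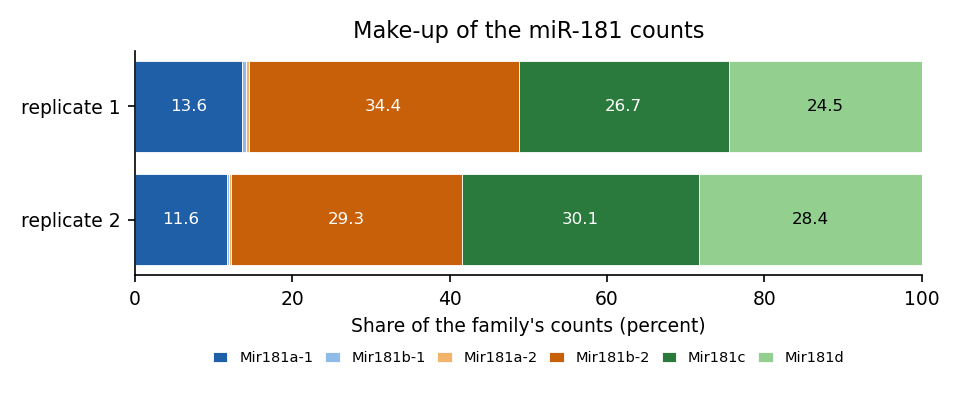
Share of the family's counts (x axis, percent) from each gene in replicate 1 and replicate 2, without reads placed at several genes. Mir181b-2, Mir181c and Mir181d together fill 85.6% in replicate 1 and 87.8% in replicate 2, while Mir181b-1 and Mir181a-2 are slivers under 1%.

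In reads placed at 1 copy, the genes of miR-181a and of miR-181b leaned to opposite clusters. Mir181a-1 was 49.2-fold higher than Mir181a-2 in replicate 1 (exact 95% interval 35.9 to 69.4) and 37.5-fold higher in replicate 2 (29.0 to 49.3). Mir181b-1 was 65.4-fold lower than Mir181b-2 in replicate 1 (52.0 to 83.5) and 94.6-fold lower in replicate 2 (73.3 to 124). On the log2 scale with 1 CPM added, the ratio of copy 1 over copy 2 was 5.32 ± 0.27 for a and -6.22 ± 0.35 for b (SD, n = 2). The a ratio exceeded the b ratio by 11.48 in replicate 1 and 11.59 in replicate 2. With 2 libraries an exact sign permutation test cannot go below p = 0.5, so no p-value over libraries is given.

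In reads placed at 1 gene, the ratio of first over second hairpin was large in the clusters on chromosomes 1 and 2. It was small in the cluster on chromosome 8. Mir181a-1 over Mir181b-1 was 4.64 and 5.13 on the log2 scale in replicates 1 and 2. Mir181a-2 over Mir181b-2 was -6.85 and -6.46. Mir181c over Mir181d was 0.12 and 0.09, a 1.09-fold difference in replicate 1 (exact 95% interval 1.04 to 1.14) and 1.06-fold in replicate 2 (1.02 to 1.10). Per hairpin length the sign of the last ratio turned, to a mean of -0.20, so which of Mir181c and Mir181d was the higher depends on that choice.

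The hairpins of the copies show which part of the gene counts can be tied to a copy, and are printed for that purpose with both mature arms in capitals.
Mir181a-1: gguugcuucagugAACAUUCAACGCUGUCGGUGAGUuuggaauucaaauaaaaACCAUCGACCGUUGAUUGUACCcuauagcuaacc
Mir181a-2: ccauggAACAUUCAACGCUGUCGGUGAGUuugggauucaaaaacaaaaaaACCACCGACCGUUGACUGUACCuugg
Mir181b-1: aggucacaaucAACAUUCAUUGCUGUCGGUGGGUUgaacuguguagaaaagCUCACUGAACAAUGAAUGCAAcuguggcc
Mir181b-2: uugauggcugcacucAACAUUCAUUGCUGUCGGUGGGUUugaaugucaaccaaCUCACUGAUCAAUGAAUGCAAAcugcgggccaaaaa

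From the first base of the 5p strand on, the a copies were identical over 27 bases, 4 beyond the mature end, and first differed at A28G (the Mir181a-1 base first, counted from the 5p start). The b copies were identical over 24 bases, exactly the length of the mature strand, and first differed at G25U (the Mir181b-1 base first). A read of the annotated 5p strand therefore matches both copies, and a read of the 3p strand matches 1 copy. The longest stretch shared by the copies was 28 bases for a and 26 bases for b.

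Of all 22-nt windows, 7 of 66 in Mir181a-1, 7 of 55 in Mir181a-2, 5 of 59 in Mir181b-1 and 5 of 68 in Mir181b-2 occurred in another of the 1005 hairpins of the RefSeq table. For Mir181d this was 0 of 51. Mir181c has no hairpin in that table, so it was neither searched nor open to a match. With reads placed at several loci kept out of the gene counts, the copy ratios rest on reads that the alignment placed at 1 copy. How the 5p reads matching both copies divide between them cannot be told from the counts, and the alignment settings are unknown.

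Large gaps between copies were seen in other families too, in the same kind of counts. Among annotated genes whose symbols differ only in the final number, 27 pairs had at least 1 detected copy, with a median absolute log2 ratio of 2.24. The b copies ranked 2nd and the a copies 3rd among them by that measure, behind Mir219a-1 over Mir219a-2 at -9.21. The copy ratio had the same sign in both libraries in 25 of the 27 pairs, a and b among them. Both copies were detected in 19 of the 27 pairs. With 1 CPM added, a pair at a low level cannot reach a large ratio, such as Mir344d-2 and Mir344d-3 at a summed 5.95 CPM. The ranks and the median therefore depend on level too. Genes of these pairs are not independent, and the ranks are a description.

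**Figure D4:**
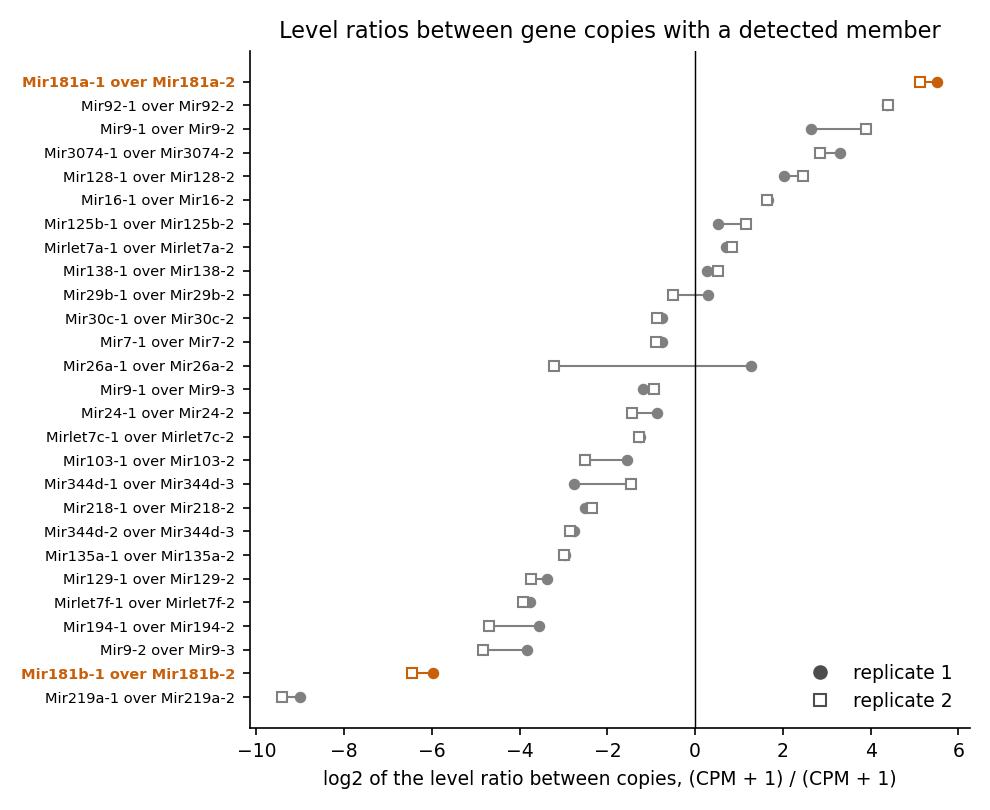
The log2 ratio of levels between gene copies (x axis, 1 CPM added) for the 27 pairs with a detected copy, in replicate 1 (filled circles) and replicate 2 (open squares), with the miR-181 pairs in orange. The a pair lies at the positive end (5.51 and 5.13) and the b pair near the negative end (-5.97 and -6.46).

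Neighbours on 1 strand differed widely elsewhere as well, in counts that leave out reads placed at several genes. The pair with the largest ratio, Mir29b-1 over Mir29a at -8.02, sets a gene with a shared mature strand beside one without. The part of the left-out reads in these ratios was not tested. Of 85 pairs of neighbouring detected genes within 10000 bp, the median absolute log2 ratio was 3.10. Mir181a-2 over Mir181b-2 ranked 5th of the 85 by absolute ratio and Mir181a-1 over Mir181b-1 ranked 18th. Mir181c over Mir181d was last, at 0.10. The 3 clusters of the family thus spanned nearly the whole range of these pairs, whose lowest and highest values were 0.10 and 8.02.

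The leading gene took a smaller part of the miR-181 family than of the other seed families compared with it, which have 6, 4 and 3 genes. Reads placed at several genes are left out of all of these, and a mature strand is shared with another gene by 4 of 6 miR-181 genes, 2 of 4 miR-29 genes and 2 of 3 miR-26 genes, and by 2 of the 4 miR-30 genes with an entry in the RefSeq table. The highest miR-181 gene, Mir181b-2, made up 31.8% of the family's mean level. In the miR-30 family Mir30d made up 46.1%, in the miR-29 family Mir29a made up 90.2%, and in the miR-26 family Mir26b made up 98.4%. The distance between the highest and the lowest gene was 6.65 on the log2 scale in miR-181, 5.64 in miR-30, 8.02 in miR-29 and 8.18 in miR-26. Summed counts of this kind were lower in the miR-181 family, at 0.446% ± 0.00500 of the counts (SD, n = 2), than in miR-30 at 1.26% ± 0.231, miR-29 at 2.04% ± 0.603 and miR-26 at 1.02% ± 0.182. The 12 miRNAs of the synaptic list were all detected and had a median of 10.06 on the log2(CPM + 1) scale, against 9.67 in the miR-181 family.

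By level over the 2 libraries, the closest gene outside the family was Mirlet7c-1 to Mir181a-1, Mir3070b to Mir181b-1, Mir484 to Mir181b-2, Mir434 to Mir181c and Mir154 to Mir181d. The distances, on the log2(CPM + 1) scale over 2 libraries, were 0.09, 0.04, 0.17, 0.13 and 0.15. The next closest were Mir672, Mir103-2, Mirlet7c-2, Mir872 and Mir434. For Mir181a-2 they were n-TSaga9 and Mir7046, at 0.18 and 0.22. With 2 points per gene this measures a like level and nothing more.

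Between the libraries the family as a whole stayed nearly level while its clusters moved apart. Ratios of replicate 1 over replicate 2 are given after TMM scaling, which sets the bulk of the genes equal. The summed a-1/b-1 cluster was at 0.34 on the log2 scale (exact 95% interval 0.25 to 0.43) and the a-2/b-2 cluster at 0.32 (0.26 to 0.37). The c/d cluster was at -0.10 (-0.14 to -0.06). The 4 a and b genes together were at 0.32 (0.28 to 0.37), and the whole family at 0.09 (0.06 to 0.12). Without TMM scaling, the family's shares of the assigned counts, 0.449% and 0.442%, had overlapping exact intervals. The share of reads that map to several places also differed, at 36.3% in replicate 1 and 41.7% in replicate 2, and its part in the a and b ratios was not tested. In tissue, fewer cells of a type and less RNA per cell cannot be told apart as sources of such differences.

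Each gene's 2 counts were also compared with an exact binomial test, two-sided, with Benjamini-Hochberg adjustment over 459 genes with at least 10 counts in either library. The test compares these 2 libraries under counting error alone and no conditions. Of the members, 3 of 6 were called higher in replicate 1, against 29.0% of all genes tested, and 2 of 6 were called lower, against 27.9%. Genes with more counts were called more often. Of the 184 genes with at least 1000 counts over both libraries, 154 were called in either direction. Mir181a-1, Mir181b-2, Mir181c and Mir181d are among these 184. Mir181b-2 (log2 ratio 0.32, 0.27 to 0.38, exact binomial adjusted p = 3.04e-29), Mir181a-1 (0.32, 0.23 to 0.41, adjusted p = 3.08e-12) and Mir181b-1 (0.83, 0.34 to 1.37, adjusted p = 0.00171) were higher. Mir181c (-0.08, -0.14 to -0.02, exact binomial adjusted p = 0.0141) and Mir181d (-0.12, -0.18 to -0.05, adjusted p = 0.000553) were lower. Mir181a-2 was at -0.07 (-0.69 to 0.54) and did not pass (exact binomial adjusted p = 0.893).

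Of all genes tested, 261 of 459 were called, so a difference beyond counting error was common between these libraries. The members' median absolute log2 ratio was 0.22, against 0.40 over all 459 genes and 0.31 over the 184 genes with at least 1000 counts. The biological coefficient of variation between the libraries, by edgeR over the 459 genes, was 0.385. Some marker sets of other cells differed in their sums between the libraries and others had closer sums. The choroid plexus and ependyma set of 4 genes, all detected, summed to 2993 CPM in replicate 1 and 1094 in replicate 2. The endothelial marker Mir126a was at 12521 and 22475 CPM, and the hindbrain set of 2 genes, both detected, at 138 and 502 CPM. All 4 choroid plexus genes were called higher in replicate 1 by the same test, and Mir126a and both hindbrain genes lower. The 2 oligodendrocyte markers summed to 6793 and 6681 CPM, the 2 pericyte markers to 8170 and 6864 CPM, and the 2 red blood cell markers to 67.3 and 61.2 CPM, all detected. By the same test Mir338 was called higher in replicate 1 (log2 ratio 0.34) and the other oligodendrocyte marker, Mir219a-2, lower (-0.13). Both pericyte markers were called higher (Mir143 0.32, Mir145a 0.49). So was the red blood cell marker Mir451a (0.51), while Mir486 was not called (-0.23). The lymphoid marker Mir150 was at 803 and 791 CPM and was called higher in replicate 1 (log2 ratio 0.09). The 3 microglial and blood cell markers, all detected and none called, were at 460 and 479 CPM. Neuronal markers were called in both directions. Mir132 (log2 ratio 0.80), Mir138-2 (0.23) and Mir9-2 (1.44) were called higher in replicate 1. Mir128-1 (-0.93), Mir128-2 (-0.49) and Mir137 (-0.41) were called lower. Mir138-1, Mir9-1 and Mir9-3 were not called, and the Mir124a copies had too few counts to be tested. The part of these marker sets in the ratios of the miR-181 genes was not tested.

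**Figure D5:**
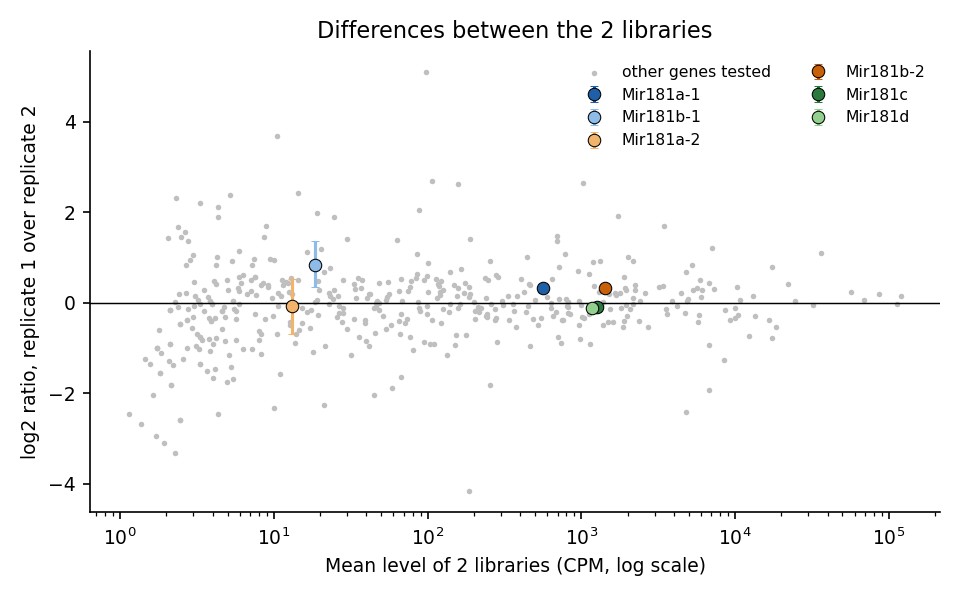
The log2 ratio of replicate 1 over replicate 2 (y axis, TMM scaled, 0.5 CPM added) against the mean level of 2 libraries (x axis, CPM on a log scale) for 459 genes, with the miR-181 genes coloured and their exact 95% counting intervals. Mir181a-1 and Mir181b-2 lie together at 0.32, and Mir181c and Mir181d together at -0.08 and -0.12.

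The reads of the family lay on the annotated strand alone. All 6 genes had 0 counts on the other strand in both libraries, which allows a level of at most 0.957 CPM (replicate 1) or 0.685 CPM (replicate 2), the value of 3 counts. Counted without regard to strand, each gene had the same count as on its own strand. Mir181b-1, which lies in a same-strand exon, and Mir181b-2, which lies across from an exon, were alike in this.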

How the data were processed

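What the authors deposited for each library is a table of whole-number, unnormalized read counts over 2202 miRNA genes, in 3 columns below 4 summary lines. Build mm10 and annotation M21 are named per the notes that were deposited alongside. The sources used here do not name an aligner, a counter or a trimming step. The first column was taken to ignore strand and the others to hold a strand each, and the strand column with the larger total (93.4% and 91.9% of both) was used. The summary lines stayed out of library sizes. Unmapped reads were 26.5% and 18.1% of the libraries, and reads outside miRNA genes 5.72% and 5.91%.

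Symbols, positions and hosts came from the M21 annotation. Sequences came from a RefSeq table that held mature strands for 6 of 6 members and hairpins for 5, all but Mir181c. TMM factors (edgeR 4.0.16, R 4.3.3) over genes with at least 10 counts in either library were 0.976 and 1.02. The binomial test was run beforehand on simulated counts with counting error only, the model it assumes. That run cannot tell how the test behaves under spread beyond counting. The design implied no contrast between conditions. Alternatives were the strand column, denominators, plain CPM and DESeq2 1.42.0 scaling, gene length, pseudocounts, count minimums and each replicate left out. Named genes are the members, the 2 genes nearest to each in level, genes that overlap them, and the highest and lowest genes of the compared lists. Mir219a-1, Mir219a-2, the other neuronal markers, among them the other Mir124a copies, and the genes beside the clusters were added after their values were seen. The members and lists were chosen with earlier results of these data known. P-values set the difference between 2 libraries, which may not be separate animals, against counting error alone. Scripts ran on Python 3.11.15 with pandas 2.3.3, scipy 1.17.1 and numpy 2.4.6, and figures on matplotlib 3.10.9.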

Additional observations from a re-analysis of the deposited data

How the results depend on the processing

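The family share of 0.446% became 0.484% in counts without regard to strand, 0.458% over genes without further copies plus the members, and 0.147% over all reads of the libraries. The only other setting run for the cluster shares, strand, could not move them, since it left the members' counts as they were. Division by hairpin length was not run for these shares. Leaving out 1 of 2 libraries moves any mean by a fixed part of the SD, so it is no check here. The log2 ratio of Mir181a-1 over Mir181a-2 fell to 4.97 with a pseudocount of 5 CPM, by construction, that of Mir181a-2 over Mir181b-2 was -6.30 with the same pseudocount, and that of Mir181c over Mir181d was -0.20 per hairpin length. All 6 genes were detected at a minimum of 5 counts and 5 at a minimum of 50. The shares of all genes at these minimums were not computed. Between the libraries 5 members were called under each of 5 other settings. The size of their ratios depended on the scaling. With plain CPM in place of TMM the log2 ratios were all lower. They were 0.25 for Mir181a-1 and Mir181b-2, 0.76 for Mir181b-1 and -0.14 for Mir181a-2. Mir181c was at -0.15 and Mir181d at -0.19. In those settings 34.1% to 74.4% of all genes tested were called. No paired analysis was possible because there is 1 group. Depth limits Mir181a-2 and Mir181b-1 most, with under 100 counts in each library. No setting adds reads placed at both copies to a gene.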
